A study of Homo sapiens with 30 samples.

Results

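The genes described here encode the subunits of the oxidative phosphorylation system, the 4 respiratory chain complexes and the ATP synthase of the inner mitochondrial membrane. They were taken by symbol from a table of 27630 gene rows, as every row that begins with NDUFA, NDUFB, NDUFC, NDUFS, NDUFV, SDHA to SDHD, UQCR, COX4 to COX8 or ATP5. The rule found 110 rows. By symbol, 84 of them are subunit genes, with 39 in complex I, 4 in complex II, 8 in complex III, 17 in complex IV and 16 in complex V. The rest are 12 assembly factors, 7 pseudogenes or retrocopies, 5 antisense or readthrough genes and 2 other proteins. All subunits of the rule are encoded in the nucleus, and of the 26 symbols searched for protein genes of the mitochondrial genome, 0 were in the table.

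Complex I takes electrons from NADH and complex II, which is also the succinate dehydrogenase of the citric acid cycle, takes them from succinate. Complex III passes them on to cytochrome c, complex IV gives them to oxygen, and complex V uses the proton gradient built on the way to make ATP. The subunit mRNAs are transcribed in the nucleus and translated mainly in the cytosol, and the finished proteins are imported into mitochondria, where they join the few subunits made from mitochondrial DNA.

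Sequenced RNA came from HEK293FT cells, an embryonic kidney line of human origin, with 8 libraries that form 4 groups of 2. One group is the nuclear fraction and another the cytosolic fraction. The next, called native here, is RNA tagged at the nuclear lamina by the peroxidase APEX2, and the last is the same preparation from cells fixed with paraformaldehyde (PFA). All 8 were asynchronous cells that had received a construct of APEX2 with lamin B1 by lipid transfection (Lipofectamine), and all had Trizol extraction and depletion of ribosomal RNA. The promoter that drives the construct is not given in the sources used here, and nothing says that replicates were separate cultures, so p-values measure only the spread between these libraries. In bulk RNA, a change in the number of cells that carry an RNA and a change in its amount per cell cannot be told apart.

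Total counts per library ran from 2321291 in PFA replicate 2 to 8557777 in native replicate 1. The fractions carried their reference RNAs: MALAT1, a nuclear long RNA, stood at 13742 ± 3932 CPM (mean ± SD, n = 2) in the nuclear and 885 ± 127 CPM in the cytosolic fraction. CPM here are counts scaled to library size after TMM normalisation, which multiplies each library size by a factor, here 0.82 to 1.17. The libraries keep their different compositions. GAPDH, an mRNA of glycolysis, stood at 493 ± 333 CPM in the nuclear and 3466 ± 2112 CPM in the cytosolic fraction. All 7 HEK293 markers chosen were tested, and PTPRC, HBB and COL1A2 of the 7 markers of other cell types were at 0 in every library. COL1A1 was at 17.0 ± 3.73 to 25.8 ± 4.82 CPM over the group means, and its part in the results was not tested. LMNB1, the gene of the construct, took 0.304% to 0.520% of the counts in the 4 fraction libraries and 2.96% to 9.49% in the 4 lamina libraries. The 2 mitochondrial ribosomal RNA rows took 30.4% and 31.3% of the nuclear counts, 7.81% and 15.0% of the cytosolic, 6.82% and 8.16% of the native and 20.6% and 7.13% of the PFA counts, and their part in the results was not tested.

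The 84 subunit genes took 0.218% and 0.236% of all counts in the nuclear libraries. Of cytosolic counts they took 0.673% and 0.605%, in the native preparation 0.342% and 0.219%, and in the PFA preparation 0.502% and 0.375%. In summed CPM the cytosolic libraries were the highest in every complex, and the PFA mean lay between the nuclear and the cytosolic mean in all 5. The 95% Wilson intervals of these shares cover counting error only, and the widest ran from 0.367% to 0.383%. The summed level of complex V was 621 and 739 CPM in the nuclear, 2343 and 2519 in the cytosolic, 1060 and 578 in the native and 1996 and 1013 in the PFA libraries. The summed level of complex IV was 363 and 479 CPM in the nuclear, 974 and 1240 in the cytosolic, 335 and 190 in the native and 886 and 478 in the PFA libraries. Both native libraries thus lay below both nuclear libraries in complex IV, while in complex V the 2 groups overlapped. PFA replicate 2 was level with nuclear replicate 2 in complex IV. Replicate 1 was above replicate 2 in both lamina preparations in all 5 complexes, and replicate 2 was above replicate 1 in both fractions.

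**Figure D1:**
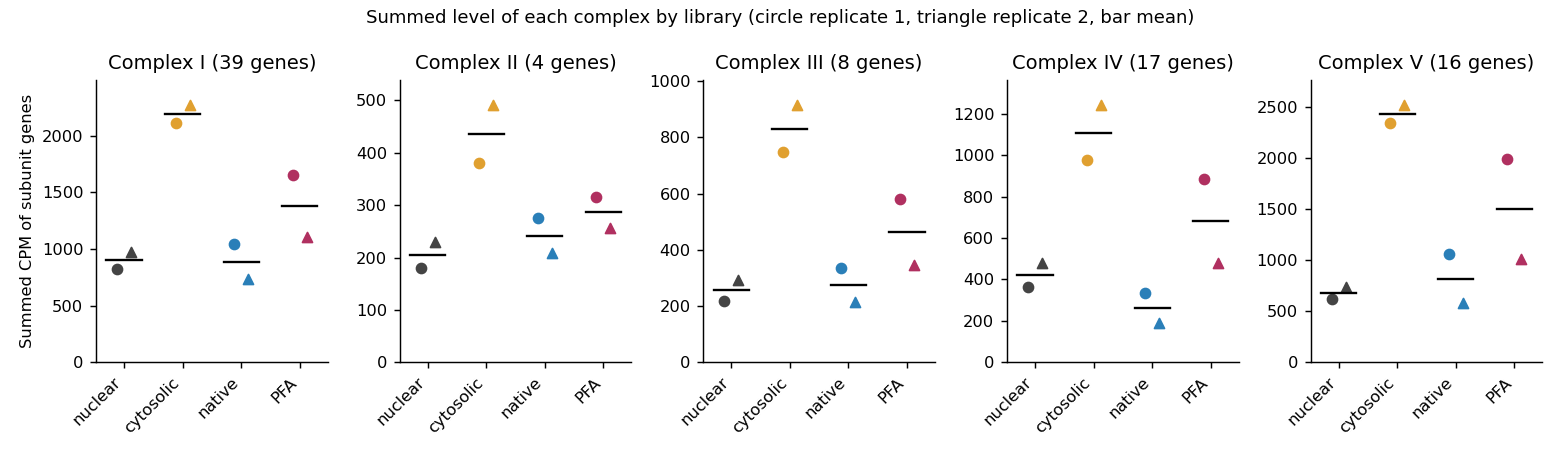
Summed CPM of the subunit genes of each complex, in 1 panel per complex, for the 4 groups on the horizontal axis. Circles are replicate 1, triangles replicate 2 and bars the mean of 2 libraries. Cytosolic libraries are the highest in every panel, and only in complex IV do both native libraries (335 and 190 CPM) lie below both nuclear libraries (363 and 479 CPM).

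Levels of different genes were compared per kilobase of exonic length, in the cytosolic fraction. ATP5B, the catalytic beta subunit of the ATP synthase, was the most abundant subunit RNA at 487 ± 30.5 CPM per kb (n = 2). COX7C, a small subunit of cytochrome c oxidase, followed at 357 ± 87.1 CPM per kb and COX5A at 210 ± 22.7. The highest of complex I was NDUFB10, a subunit of the membrane arm, at 192 ± 13.6 CPM per kb. The highest of complex III was UQCRH, a small acidic subunit also called the hinge protein, at 151 ± 33.5 CPM per kb, and it has a near-identical retrocopy, UQCRHL, with which its reads can be exchanged. In complex II the pair that carries the catalytic centres was above the pair that anchors the complex in the membrane: SDHA, the flavoprotein, stood at 92.0 ± 25.7 and SDHB, the iron-sulphur subunit, at 82.0 ± 3.45 CPM per kb, against 22.6 ± 1.77 for SDHD and 17.0 ± 0.0546 for SDHC. SDHA and SDHB, and likewise COX5A and NDUFB10, did not differ beyond their spread.

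The first comparison asked how the share of subunit RNAs differs between the nuclear and the cytosolic libraries. Each library is scaled to its own size, so a value is relative to the other RNAs of that library. How the RNA of a gene is divided between nucleus and cytosol was not measured. Most subunit RNAs were lower in the nuclear fraction, in all 5 complexes. Of the 84 subunits, 79 passed the filter on low counts and were tested; 68 of the 79 were lower in the nuclear fraction and 2 were higher, at an adjusted p under 0.05 in edgeR's quasi-likelihood test with Benjamini-Hochberg adjustment over all 16504 genes tested. Over all genes tested, 21.2% were called lower and 26.1% higher. The median log2 fold change of the subunits was -1.63, which is 3.10-fold lower in the nuclear fraction, beside 0.13 for all genes tested. Over the 4 pairings of 1 nuclear with 1 cytosolic library the subunit median ran from -1.85 to -1.36. The count of lower subunits was 41 without nuclear replicate 1, beside 9.72% of all genes in that fit, and 50 to 71 without any other single library, and 41 of the 68 calls held in all 8 of these fits.

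**Figure D2:**
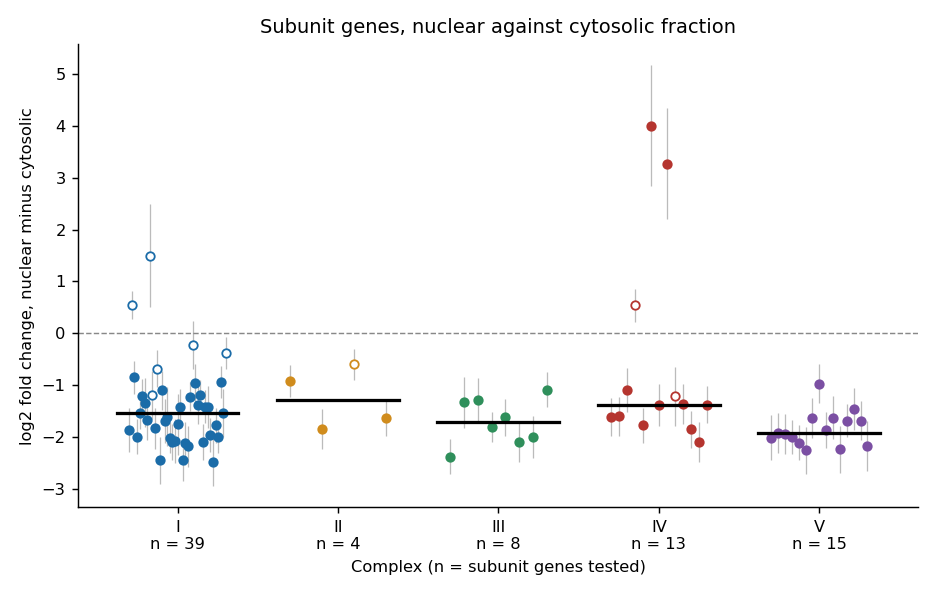
Log2 fold change of each tested subunit gene, nuclear minus cytosolic, by complex. Filled points passed an adjusted p under 0.05 in edgeR, open points did not, thin bars are 1 standard error and thick bars are the complex medians, which run from -1.28 in complex II to -1.92 in complex V.

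Complex V had the lowest median, -1.92, and all 15 of its tested subunits were called lower. All 8 subunits of complex III were called lower, with a median of -1.72. In complex I 33 of 39 were called lower, with a median of -1.54, in complex IV 9 of 13, with a median of -1.38, and in complex II 3 of 4, with a median of -1.28. Complex V kept the lowest and complex II the highest median in all 18 settings tried, the reported one included. Whether the complexes differ was not tested.

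Among complex I subunits the difference was largest for NDUFS6, an accessory subunit of the electron-input module. NDUFS6 read 8.40 and 11.9 CPM in the nuclear, 54.6 and 59.2 in the cytosolic, 31.5 and 11.5 in the native and 62.6 and 30.5 in the PFA libraries. Its nuclear libraries were the lowest of the groups apart from native replicate 2, and its log2 fold change of nuclear against cytosolic was -2.49 (SE 0.46, adjusted p = 0.00154 in edgeR). NDUFA8 fell by 2.46 and NDUFB10 by 2.01 on the log2 scale in the nuclear fraction. NDUFS1, the large iron-sulphur subunit that takes electrons on from NADH, changed less: it read 58.7 and 60.3 CPM in the nuclear and 140 and 131 CPM in the cytosolic libraries, with a log2 fold change of -1.18 (SE 0.28, adjusted p = 0.0044 in edgeR). The 6 complex I subunits without a call were NDUFA4L2, NDUFA5, NDUFA7, NDUFA10, NDUFB9 and NDUFV3. NDUFA10, whose exons sum to 9730 bases, the longest of all subunits, read 121 and 128 CPM in the nuclear and 78.0 and 92.6 CPM in the cytosolic fraction, so both nuclear libraries were above both cytosolic ones (log2 fold change 0.55, SE 0.26, adjusted p = 0.104 in edgeR). NDUFB9 had a log2 fold change of -0.23 (adjusted p = 0.699 in edgeR), which was 0.048 with upper-quartile factors and 0.010 without nuclear replicate 2.

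In complex II, SDHB read 26.6 and 25.4 CPM in the nuclear and 91.1 and 96.6 CPM in the cytosolic libraries, with a log2 fold change of -1.85 (SE 0.38, adjusted p = 0.00249 in edgeR). SDHD fell by 1.64 on the log2 scale. SDHA fell by 0.92, with an adjusted p of 0.0266 that became 0.214 without nuclear replicate 1 and 0.206 without cytosolic replicate 2 (edgeR). SDHC stood at -0.60 and was not called (adjusted p = 0.117 in edgeR).

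In complex III the difference was largest for UQCR10, a small accessory subunit. UQCR10 read 10.9 and 16.2 CPM in the nuclear, 69.0 and 71.9 in the cytosolic, 22.2 and 13.1 in the native and 37.0 and 37.2 in the PFA libraries. The 2 fractions were far apart and the PFA libraries lay between them (nuclear against cytosolic -2.38 on the log2 scale, SE 0.33, adjusted p = 6.24e-04 in edgeR). UQCRFS1, the Rieske iron-sulphur protein, fell by 2.09, and the core proteins UQCRC1 and UQCRC2 fell by 1.81 and 1.62. CYC1, the cytochrome c1 of the same complex, which the symbol rule leaves out, fell by 1.44 (adjusted p = 0.00777, and 0.0901 without nuclear replicate 1 or 0.0657 without cytosolic replicate 2, in edgeR).

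In complex V, ATP5B read 233 and 242 CPM in the nuclear, 937 and 857 in the cytosolic, 423 and 233 in the native and 790 and 416 in the PFA libraries. Both cytosolic libraries were above all others, and native replicate 2 was level with the nuclear ones (nuclear against cytosolic -1.92 on the log2 scale, SE 0.39, adjusted p = 0.00214 in edgeR). ATP5A1, the alpha subunit, fell by 2.01, ATP5F1, of the peripheral stalk, by 2.26, and ATP5I by 2.24. The 3 genes ATP5G1, ATP5G2 and ATP5G3 encode the same mature c subunit of the membrane ring, with different import sequences. ATP5G3 fell by 1.87 and ATP5G1 by 1.63. ATP5G2 fell by 0.98, with an adjusted p of 0.0483 that became 0.256 without nuclear replicate 1, 0.0773 without nuclear replicate 2 and 0.305 without cytosolic replicate 2 (edgeR). Whether the 3 differ was not tested.

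Log2 fold changes above 0 were found for 2 of 39 subunits in complex I and 3 of 13 in complex IV. Complex IV held the 2 subunits that were called higher, described below. Of its subunits called lower in the nuclear fraction, COX7B fell by 1.85 on the log2 scale, COX6B1 by 1.78 and COX4I1 by 1.62. COX7C stood at -2.103 and COX5A at -1.605. The others called lower changed less: COX6C stood at -1.393, COX8A at -1.376, COX7A2L at -1.37 and COX5B at -1.097. Not all of these calls held when single libraries were left out. COX6A1, the widely expressed form of a regulatory subunit, had another order of values. It read 46.8 and 49.996 CPM in the nuclear, 31.3 and 35.5 in the cytosolic, 21.5 and 10.3 in the native and 60.2 and 58.1 in the PFA libraries. Both nuclear libraries were above both cytosolic ones, without a call (log2 fold change 0.54, SE 0.33, adjusted p = 0.189 in edgeR). COX7A2 stood at -1.22 and was not called either (adjusted p = 0.0917 in edgeR).

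The 2 subunits called higher in the nuclear fraction were COX6B2 and COX7A1, forms of complex IV subunits known from testis and from heart and skeletal muscle. COX6B2 had 28 and 37 counts in the nuclear, 4 and 0 in the cytosolic, 5 and 11 in the native and 1 and 9 in the PFA libraries. Per library size its nuclear counts were 16.2 times the cytosolic ones (95% counting interval 6.03 to 61.2), with an adjusted p of 0.0136 that became 0.0709 without nuclear replicate 2 and 0.0782 without cytosolic replicate 2 (edgeR). COX7A1 had 14 and 18 counts in the nuclear and 1 and 2 in the cytosolic libraries, a ratio of 10.6 (3.33 to 54.3). Its adjusted p of 0.024 became 0.0544 to 0.149 without any 1 of the 4 libraries compared (edgeR). For both, only the nuclear group had both libraries above the filter's minimum, so their direction is in part fixed by the filter. CKM, a skeletal muscle gene among the markers of other cell types, stood at 4.15 ± 0.519 CPM in the nuclear and 0.267 ± 0.378 CPM in the cytosolic fraction, and its part in the result was not tested.

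Of the other tissue forms, COX6A2 and COX7B2 had 0 counts in all 8 libraries, COX4I2 had 1 and COX8C at most 3 in a library. With ATP5L2, at 2 to 15 counts, these are the 5 subunits that were not tested. NDUFA4L2 had 23 and 29 counts in the nuclear, 14 and 5 in the cytosolic, 6 and 12 in the native and 0 and 9 in the PFA libraries. Its common counterpart NDUFA4, which carries a complex I symbol and is now counted to complex IV, fell by 1.68 on the log2 scale in the nuclear fraction.

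The bases upstream of their start sites were searched for 3 motifs on both strands, in the RefSeq promoter windows of build GRCh38.p14, not the build of the counts. Of the 84 subunits 68 had a window, and the 250 bases before the start were read. The motifs were GCGCATGC of nuclear respiratory factor 1 (NRF1), CCGGAAG of ETS factors such as GABP, and AAGATGGC of YY1. The first can overlap its own reverse complement, and no match of one motif overlapped another in the windows shown. The ETS motif was in 16 of the 68 windows (23.5%), beside 8.82% of all 27305 windows. The NRF1 motif was in 12 (17.6% beside 2.81%) and the YY1 motif in 1 (1.47% beside 1.37%). Its palindromic form of 10 letters, which is the motif overlapped with its reverse complement and which was searched first, was in 3 windows (4.41% beside 1.13%); the form of 8 letters was taken after that. By complex, the ETS motif was in 5 of 33 windows of complex I, 2 of 3 of complex II, 3 of 7 of complex III, 4 of 14 of complex IV and 2 of 11 of complex V. The NRF1 motif was in 4, 2, 0, 2 and 4 of the same windows. A match is a description of the letters and no evidence of binding. The window with the most motif kinds and matches in each complex, the first by symbol where several tied, is shown here as 120 to 250 bases, 5′ to 3′ on the gene's strand, with motif matches in capitals.
NDUFB4 (complex I), chr3:120596137-120596256, plus strand: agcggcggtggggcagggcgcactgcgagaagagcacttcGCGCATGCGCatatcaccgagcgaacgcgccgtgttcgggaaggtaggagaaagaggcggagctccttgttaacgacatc
SDHD (complex II), chr11:112086723-112086842, plus strand: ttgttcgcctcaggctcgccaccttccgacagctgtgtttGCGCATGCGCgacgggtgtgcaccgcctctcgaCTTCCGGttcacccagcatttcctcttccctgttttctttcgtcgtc
UQCR11 (complex III), chr19:1605500-1605619, minus strand: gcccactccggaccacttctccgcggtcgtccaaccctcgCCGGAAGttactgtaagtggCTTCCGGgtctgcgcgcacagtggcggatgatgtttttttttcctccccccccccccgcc
COX6A1 (complex IV), chr12:120437863-120438112, plus strand: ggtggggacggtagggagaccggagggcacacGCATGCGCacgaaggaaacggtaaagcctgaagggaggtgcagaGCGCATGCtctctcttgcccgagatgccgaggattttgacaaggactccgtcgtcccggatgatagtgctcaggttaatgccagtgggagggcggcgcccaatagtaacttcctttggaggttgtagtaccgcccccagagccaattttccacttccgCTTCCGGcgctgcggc
ATP5J (complex V, now ATP5PF), chr21:25735055-25735214, minus strand: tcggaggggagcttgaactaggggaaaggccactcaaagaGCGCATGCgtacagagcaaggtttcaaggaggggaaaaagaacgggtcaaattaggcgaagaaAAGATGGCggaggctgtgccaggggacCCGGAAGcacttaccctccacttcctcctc
NDUFB4 and SDHD hold the palindromic NRF1 form, and SDHD 1 ETS match besides. UQCR11 holds 2 ETS matches, COX6A1, the gene described above, 2 separate NRF1 matches and 1 ETS match, and ATP5J 1 match of each of the 3 motifs.

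The native preparation was then set against the nuclear fraction, which asks whether subunit RNAs at the lamina differ from those of the nucleus as a whole. By their median they were close: -0.09 on the log2 scale, beside -0.07 for all genes tested. Of 79 subunits 1 was called lower, beside 3.44% of all genes, and 0 were called higher, beside 3.87%. At an unadjusted p under 0.05, 14 were lower and 5 higher, beside 15.4% and 13.4% of all genes. DESeq2's Wald test called 2 lower and 0 higher, beside 4.67% and 5.83%. The medians were -0.09 in complex I, 0.19 in complex II, 0.14 in complex III, -0.80 in complex IV and 0.20 in complex V. Complex IV had the lowest: 12 of its 13 tested subunits had a log2 fold change below 0, beside 53.5% of all genes, and 7 an unadjusted p under 0.05 with a lower level, beside 15.4%. In 8 of the 13 both native libraries were below both nuclear ones, beside 35.1% of all genes. Without COX6B2 and COX7A1, of which only the nuclear group had both libraries above the filter's minimum, these counts were 10, 5 and 6 of 11.

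The complex IV median was -0.70 without those genes, and with them it was the lowest of the 5 in all 18 settings, from -1.16 to -0.37. The value nearest 0, -0.37, came with offsets that remove a trend of counts on gene length. Complex IV genes are short, with a median exonic length of 590 bases against 955 over all subunits and 3161 over all genes tested. Among subunits under 1000 bases the median was -0.81 for the 10 of complex IV, 0.04 for the 22 of complex I and 0.20 for the 7 of complex V. Among those of 1000 bases or more it was -0.26 for the 3 of complex IV, -0.26 for the 17 of complex I and 0.27 for the 8 of complex V. The 10 include COX7A1 and the 3 include COX6B2, and the direction of both is in part fixed by the filter. The split by length was not made without them. Over the 4 pairings of single libraries the complex IV median ran from -1.40 to -0.11, and the difference between complexes was not tested.

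The subunit called lower was COX6A1, whose 8 values are given above: both native libraries were below every other library. Its log2 fold change of native against nuclear was -1.59 (SE 0.33, adjusted p = 0.0207 in edgeR). The adjusted p became 0.167 without nuclear replicate 1, 0.119 without nuclear replicate 2 and 0.136 without native replicate 2 (edgeR). COX6C, which read 11.1 and 17.5 CPM in the nuclear and 6.86 and 4.42 CPM in the native libraries, stood at -1.32 (adjusted p = 0.0697 in edgeR), and COX7A2 at -1.66 (adjusted p = 0.0898). COX7C stood at -0.70 and NDUFA4 at -0.80, with adjusted p of 0.254 and 0.19 (edgeR). At the other end, ATP5F1 read 18.2 and 19.6 CPM in the nuclear and 54.3 and 25.2 CPM in the native libraries, all native values above all nuclear ones, without a call (log2 fold change 1.08, adjusted p = 0.131 in edgeR).

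**Figure D3:**
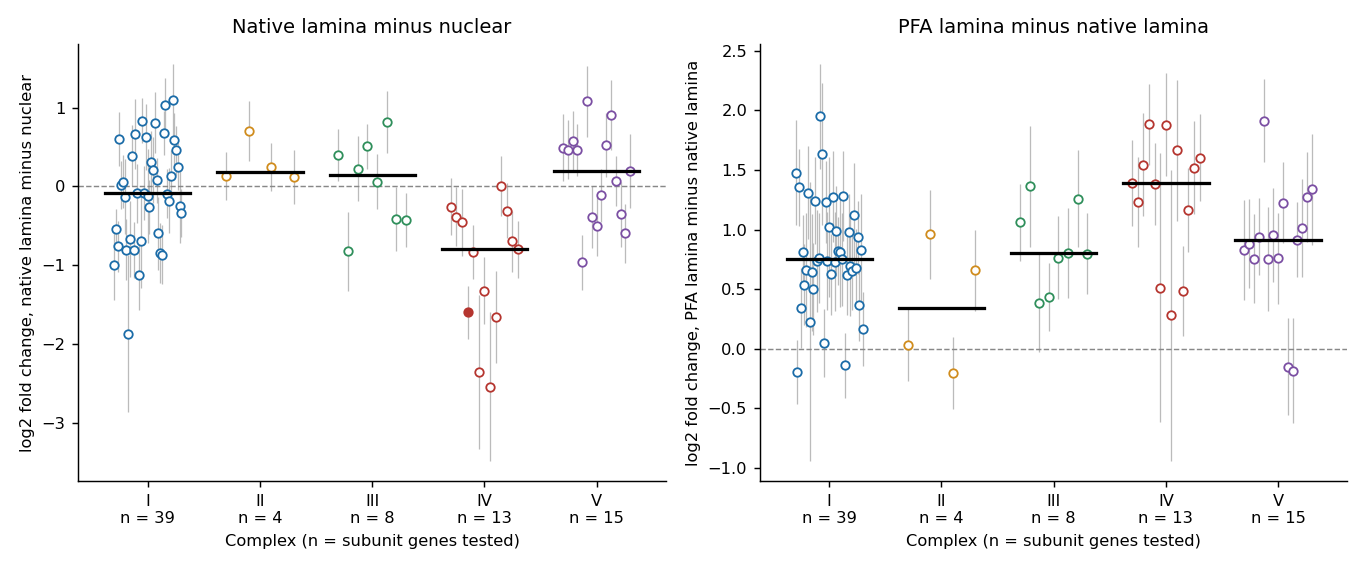
Log2 fold change of each tested subunit by complex, native lamina minus nuclear on the left and PFA lamina minus native lamina on the right. Filled points passed an adjusted p under 0.05, thin bars are 1 standard error and thick bars the complex medians, lowest for complex IV on the left (-0.80) and highest for it on the right (1.39). The 2 panels share the native libraries.

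Against the cytosolic fraction the native preparation was lower for most subunits: 61 of 79 were called lower, beside 6.77% of all genes, and 0 higher, beside 6.99%. The unadjusted count of higher subunits at p under 0.05 was also 0, as was that of DESeq2. The subunit median was -1.52, beside 0.10 for all genes. By complex 31 of 39 in complex I, 1 of 4 in complex II, 7 of 8 in complex III, 10 of 13 in complex IV and 12 of 15 in complex V were called lower. Complex IV had the lowest median, -1.99. The calls rested on few libraries: the count was 12 without cytosolic replicate 2, 13 without native replicate 2 and 20 without cytosolic replicate 1, and 10 of the 61 held in all 8 such fits. In these 3 fits 0.48%, 0.618% and 1.13% of all genes were called lower. Of the genes named by rule, COX6B1, COX6C, COX7B, COX7C, NDUFA4 and UQCR10 held. COX7C read 120 and 170 CPM in the cytosolic, 26.0 and 15.5 in the native, 26.0 and 41.6 in the nuclear and 79.1 and 39.4 in the PFA libraries, and its log2 fold change of native against cytosolic was -2.80 (SE 0.40, adjusted p = 0.00429 in edgeR). COX6C fell by 2.71, COX6B1 by 2.61 and UQCR10 by 1.99. This comparison and the one before share the native libraries.

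**Figure D4:**
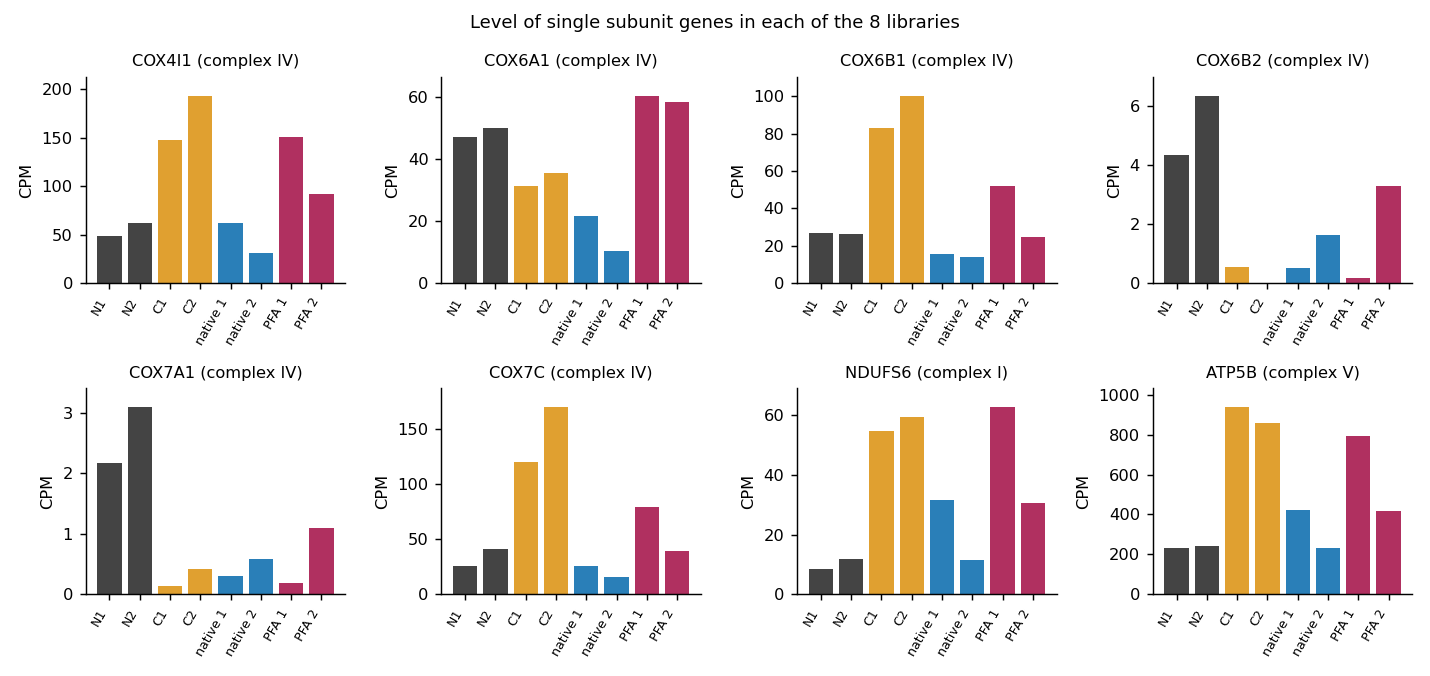
CPM of 8 named subunit genes in each library, on a linear axis from 0, with N for nuclear, C for cytosolic and the replicate number. COX7C, COX4I1, COX6B1, NDUFS6 and ATP5B are high in the cytosolic libraries, COX6A1 is not, and COX6B2 and COX7A1 are detected mainly in the nuclear libraries.

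Some subunit RNAs were higher in the PFA preparation than in the nuclear fraction. Of 79 subunits 22 were called higher, beside 9.63% of all genes, and 0 lower, beside 7.81%. At an unadjusted p under 0.05, 1 was lower, beside 17.2% of all genes, and DESeq2 called 1 lower, beside 8.74%. The median log2 fold change was 0.81, beside -0.04 for all genes. It was 0.29 without PFA replicate 1, and over the 4 pairings of single libraries it ran from 0.13 to 1.29. The 22 were 10 of complex I, 1 of complex II, 3 of complex III, 1 of complex IV and 7 of complex V, and the medians ran from 0.47 in complex II to 0.98 in complex V. Fits that leave out 1 library cannot show whether these 22 calls hold. Each such fit leaves 1 library in a group, and without nuclear replicate 1 almost no gene of any kind was called higher. The subunit median was 0.59 without nuclear replicate 1, 0.98 without nuclear replicate 2 and 1.14 without PFA replicate 2. For all genes it was -0.01, -0.02 and -0.09 in these fits. PFA replicate 2 is the library of lowest depth, and the 2 PFA libraries differed, with a summed subunit level of 5430 and 3200 CPM.

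NDUFS6 had the largest change, 2.22 on the log2 scale (SE 0.46, adjusted p = 0.0111 in edgeR, which became 0.129 without nuclear replicate 1, 0.052 without nuclear replicate 2 and 0.0551 without PFA replicate 1). SDHB read 99.0 and 65.1 CPM in the PFA libraries, above its nuclear values of 26.6 and 25.4, with a log2 fold change of 1.66 (SE 0.38, adjusted p = 0.016 in edgeR, which became 0.132 without nuclear replicate 1, 0.0885 without nuclear replicate 2 and 0.0624 without PFA replicate 1). UQCR10 rose by 1.46 (adjusted p = 0.0153 in edgeR, 0.16 without nuclear replicate 1 and 0.0508 without nuclear replicate 2). The single call of complex IV was COX4I1, whose PFA libraries read 151 and 92.3 CPM and whose nuclear libraries read 48.7 and 62.4 CPM (log2 fold change 1.14, SE 0.36, adjusted p = 0.0458 in edgeR). That p became 0.275 without nuclear replicate 1, 0.119 without nuclear replicate 2, 0.0627 and 0.0624 without cytosolic replicate 1 and 2, and 0.259 without PFA replicate 1 (edgeR).

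Against the cytosolic fraction no subunit of the PFA preparation was called: 0 of 79 were higher, beside 0.527% of all genes, and 0 lower, beside 0.145%, in edgeR. At an unadjusted p under 0.05, 34 were lower and 1 higher, beside 8.61% and 12.9% of all genes. DESeq2 called 8 lower and 0 higher, beside 2.61% and 3.34%. The median was -0.75, beside 0.08 for all genes, and 76 of 79 had a log2 fold change below 0. Without PFA replicate 1, 44 subunits were called lower, beside 6.67% of all genes in that fit.

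Between the 2 lamina preparations 0 of 79 subunits were called in either direction in edgeR, as were 0.0% of all genes higher and 0.0% lower. At an unadjusted p under 0.05, 40 subunits were higher in the PFA preparation and 0 lower, against 897 higher and 924 lower among all 16504 genes, and DESeq2 called 12 higher and 0 lower, beside 0.442% and 0.909%. The median was 0.82, beside 0.06 for all genes, and complex IV had the highest median, 1.39, with all 13 tested subunits above 0. In 9 of these 13 both PFA libraries were above both native ones, beside 19.9% of all genes. COX6A1 had the lowest adjusted p of the subunits: its PFA libraries, 60.2 and 58.1 CPM, were above its native libraries, 21.5 and 10.3 CPM (log2 fold change 1.88, SE 0.34, adjusted p = 0.257 in edgeR). Without PFA replicate 2, 32 subunits were called higher, beside 1.79% of all genes in that fit. Over the pairings of single libraries the subunit median ran from 0.02 to 1.62, so it was near 0 for 1 pairing.

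Shorter genes tended to have higher log2 fold changes of PFA against native. Across the 79 tested subunits Spearman's rho of that log2 fold change with exonic length was -0.37, and across all 16504 genes tested it was -0.33. Genes of 1 library are not independent, so these are descriptions. For native against nuclear rho was 0.10 over the subunits and 0.18 over all genes. With the length trend removed, the subunit median of PFA against native was 0.61 and that of native against nuclear 0.16.

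**Figure D5:**
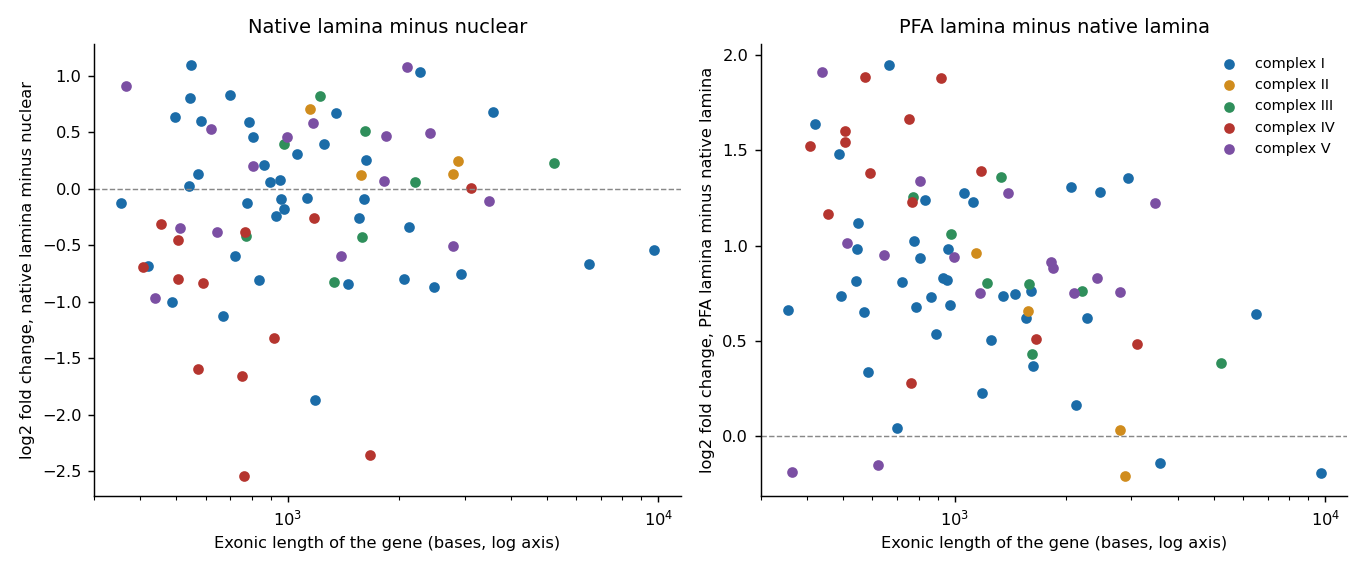
Log2 fold change of each tested subunit against its exonic length (log axis), native lamina minus nuclear on the left and PFA lamina minus native lamina on the right, coloured by complex. On the right longer genes lie lower (Spearman's rho -0.37 over 79 subunits). On the left the complex IV genes under 1000 bases have a median of -0.81. The 3 longer ones have a median of -0.26, as have the longer genes of complex I. Among these 3, COX6B2 lies far below that median, with nuclear counts 5.44 times the native ones per library size. The direction of COX6B2, and of COX7A1 among the shorter genes, is in part fixed by the filter.

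Of the 26 rows of the rule that are not subunits, all tested, 7 were called higher and 7 lower in the nuclear fraction, beside the 26.1% and 21.2% of all genes given above. Among those called lower were the retrocopies UQCRHL, at -2.37, and ATP5EP2, at -2.53. SDHAP1, SDHAP2 and SDHAP3, pseudogenes of SDHA, were called higher in the nuclear fraction, where SDHA itself was lower. SDHAP2 read 7.32 and 6.70 CPM in the nuclear, 0.535 and 0.846 in the cytosolic, 4.37 and 5.75 in the native and 3.70 and 5.52 in the PFA libraries, with a log2 fold change of nuclear against cytosolic of 3.35 (SE 0.63, adjusted p = 0.00158 in edgeR). The cytosolic libraries alone were low. SDHAP1 rose by 2.58 (adjusted p = 0.00413, and 0.0511 without nuclear replicate 2) and SDHAP3 by 1.63 (adjusted p = 0.00517, and 0.0512 without cytosolic replicate 1, in edgeR). Reads of such copies can be exchanged with those of SDHA. NDUFAF4P1, a pseudogene of an assembly factor, had 31 and 23 counts in the nuclear and 0 in both PFA libraries, and was at least 11.95-fold lower there, by a floor of 3 counts over the group. Here too only the nuclear group had both libraries above the filter's minimum, so its direction is in part fixed by the filter.

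Assembly factors help to build the complexes and are not part of them. Of the 47 listed for all complexes, 12 of which belong to the rule, 14 were called lower and 5 higher in the nuclear fraction, beside 21.2% and 26.1% of all genes, with a median of -0.67 beside 0.13. NDUFAF7, a methyltransferase that modifies a complex I subunit, read 75.6 and 88.8 CPM in the nuclear and 37.2 and 40.4 CPM in the cytosolic fraction, and rose by 1.08 in the nuclear one (SE 0.26, adjusted p = 0.00515, and 0.0504 without cytosolic replicate 1, in edgeR). NDUFAF4 fell by 2.09. Of 13 enzymes of the citric acid cycle 10 were called lower in the nuclear fraction and 0 higher in edgeR, beside the same 21.2% and 26.1%. At an unadjusted p under 0.05 in edgeR the counts were also 10 and 0, beside 24.6% and 30.2% of all genes. The median of these enzymes was -1.36. USMG5, C14orf2 and ATPIF1, of complex V outside the symbol rule, were all 3 called lower. CYCS, the cytochrome c that carries electrons from complex III to complex IV, was not: it stood at 135 ± 20.3 CPM in the nuclear and 107 ± 11.7 CPM in the cytosolic fraction (log2 fold change 0.34, adjusted p = 0.312 in edgeR), and at 55.7 ± 9.63 CPM in the native and 52.5 ± 4.47 CPM in the PFA preparation.

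Beside them, mitochondrial ribosomal protein genes, the most similar large group, had 57 of 78 called lower and 2 higher in the nuclear fraction. Over all genes 21.2% were called lower and 26.1% higher. The median of the mitochondrial ribosomal protein genes was -1.23. In native against nuclear their median was 0.23. In PFA against nuclear 31 of 78 were called higher, beside 9.63% of all genes, with a median of 0.96. Cytosolic ribosomal protein genes had 69 of 83 tested called lower in the nuclear fraction, beside 21.2% of all genes, with a median of -1.80. The difference of the subunits from these groups was not tested.

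Counts ignored strand and a read on several genes was counted for each, so some values are shared. ATP5E shares 66.3% of its exonic bases with a readthrough gene, ATP5J2 35.4%, ATP5J 34.8% with GABPA, NDUFC2 32.2% and NDUFB2 28.3% with its antisense gene. Their calls are counted above as deposited.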

How the data were processed

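The authors deposited 1 table of raw read counts per library, made with featureCounts of Subread 1.5.2 on hg19 and RefFlat genes, with strand ignored and reads on several genes counted for each, per the file headers. TopHat2 2.1.1 and Bowtie2 2.3.2 are among the tools in the submitters' processing notes, without a role. The header of cytosolic replicate 1 names an output of nuclear replicate 1; it was kept as labelled.

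The counts were filtered with filterByExpr by group and tested with edgeR 4.0.16 under R 4.3.3 (TMM, quasi-likelihood, 1 fit of 8 libraries, 6 contrasts, Benjamini-Hochberg). Tested on simulated counts of nuclear against cytosolic libraries, it recovered 89.5% of 200 changed genes among 15968. Only genes of higher count were changed, by a fixed fold larger than the subunit median, and no others differed. That share is therefore not the share of subunit changes that could be found here. DESeq2 1.42.0 was an alternative. Depths of 2321291 to 8557777 counts make 3 counts equal to 0.351 to 1.292 CPM. Intervals and floors cover counting error only, since reads are not independent molecules.

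The members, gene lists and tests were chosen with earlier results of these data known. Genes named in the text were, per complex, the extremes of nuclear against cytosolic, the highest levels, SDHA to SDHD, isoform families, reference subunits and rare calls. NDUFAF4, CKM and the genes outside the rule come from the lists; NDUFV3, NDUFA5 and NDUFA7 were named after their values were seen. Domain lists of another cell line and 4 samples without a clear group were not used here.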

Additional observations from a re-analysis of the deposited data

How the results depend on the processing

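Every subunit median kept its sign under all alternatives tried except that of native against nuclear, which lay near 0. The median of nuclear against cytosolic was -1.36 with upper-quartile factors and -1.42 over all members of the rule. Subunits called higher in nuclear against cytosolic numbered 1 with at least 10 counts in every library, beside 2921 of all 12381 genes in that fit. COX6B2 and COX7A1 do not pass that filter, so this call is of another subunit. Lower in that fit were 59 of 76 subunits, beside 2691 of all genes. With DESeq2's Wald test, subunits called higher in nuclear against cytosolic numbered 1, beside 4065 of 16504. In native against nuclear, 4 were higher with total counts and 4 with length offsets, beside 1656 and 860 of 16504 genes. With no filter 3 were higher and 5 lower, beside 1240 and 1469 of 23649. With only the 4 libraries compared 5 were higher and 6 lower, beside 2013 and 2355 of 16097. Lower were 2 with at least 10 counts (529 of 12381 genes) and 2 with DESeq2 (771 of 16504). In PFA against nuclear, 13 were higher and 1 lower with upper-quartile factors, beside 1174 and 1604 of 16504 genes. With only the 4 libraries 4 were higher, beside 355 of 16205. Lower was 1 with at least 10 counts (1159 of 12381 genes) and 1 with DESeq2 (1442 of 16504). In PFA against cytosolic 19 were lower with no filter, beside 538 of 23649 genes, and 8 with DESeq2, beside 430 of 16504. In PFA against native 21 were higher with no filter, beside 123 of 23649, and 12 with DESeq2, beside 73 of 16504. The cause of these shifts was not tested. NDUFB9, uncalled, turned to 0.048 with upper-quartile factors and 0.010 without nuclear replicate 2, and was -0.55 without nuclear replicate 1. Scaling moved the median of all genes by 0.27 in nuclear against cytosolic (upper-quartile) and by 0.28 in native against nuclear (total counts); changes of subunits are to be read relative to it.

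Leaving out 1 library at a time, subunits called lower ranged from 41 to 71 in nuclear against cytosolic, 0 to 9 in native against nuclear, 12 to 70 in native against cytosolic, 0 to 44 in PFA against cytosolic and 0 to 4 in PFA against nuclear. Subunits called higher ranged from 0 to 2 in nuclear against cytosolic, 0 to 4 in native against nuclear, 0 to 47 in PFA against nuclear and 0 to 32 in PFA against native. The share of all genes called changed between these fits as well, and in some of them almost no gene of any kind was called. These ranges of counts therefore cannot show whether calls of subunits in particular hold. The subunit median ranged from -1.83 to -1.50 in nuclear against cytosolic and from -0.47 to 0.17 in native against nuclear. It ranged from -1.94 to -1.31 in native against cytosolic and from -1.33 to -0.44 in PFA against cytosolic. In PFA against nuclear it ran from 0.29 to 1.14, and in PFA against native from 0.41 to 1.37.

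The labels do not say whether replicates of the same number share a batch. Their deviations from the group means over 16504 genes correlated at 0.33 between native and PFA and at 0.29 between nuclear and cytosolic. For the other pairs of groups the correlation ran from -0.05 to 0.16. Whether replicates are paired was not tested. With a replicate block, 2 subunits were lower in native against nuclear and 1 in PFA against nuclear, beside 885 and 1674 of all 16504 genes. Lower were 69 in nuclear against cytosolic and 68 in native against cytosolic, beside 3771 and 1496. In PFA against nuclear 25 were higher, beside 1882. With 2 libraries a group and as few as 2321291 counts, small differences could not be detected.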
